A study of Mus musculus with 10 samples.

Results

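The endothelin genes of the mouse lower jaw were followed in single-cell RNA counts from 3 embryonic stages, E11.5, E14.5 and, as the oldest, E16.5. The set holds 5 of the 32285 genes in the count matrices, taken by symbol: the ligand genes Edn1 and Edn3, the receptor genes Ednra and Ednrb, and Ece1, the gene of an endothelin-converting enzyme. All 5 were present in the matrix of each stage. The tissue came from wild type embryos of the outbred NMRI strain, taken from more than 1 litter a stage and dissociated sample by sample with collagenase P. It was the whole mandible at the first stage and the dissected incisor bud at the later ones, so that stage and dissected tissue cannot be told apart. The labels name 4, 4 and 2 samples for these stages, but the barcodes of a stage carry no sample mark, and each stage was therefore 1 sample with no replicate. Where 3 values follow each other below, they are in stage order from E11.5 to E16.5. Ranges in parentheses are 95% intervals of counting error alone, cells are not replicates, and no p-value was computed.

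Endothelins are short peptides that are cut from longer precursors, first by furin-type proteases and then by endothelin-converting enzymes after a tryptophan. They act on 2 receptors coupled to G proteins: the A receptor, encoded by Ednra, which prefers endothelin-1, and the B receptor, encoded by Ednrb, which binds all endothelins alike. In the mandibular arch, endothelin-1 from epithelium and the arch core signals to neural crest-derived mesenchyme through the A receptor, and this signal gives the lower jaw its identity by way of Dlx5, Dlx6 and Hand2. Ednrb is best known for its role in neural crest-derived melanocytes and enteric neurons, and it is also a receptor of endothelium.

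The coding bases of both mature ligands are shown because they mark what separates the ligand that the A receptor prefers from the one that it binds weakly. Both stretches hold 63 bases, or 21 codons, and end with the tryptophan codon at which the converting enzyme cuts. They are identical at 50 bases, and the 13 differing bases, in capitals, fall in 8 codons, of which 6 encode another amino acid. Most of the capitals lie toward the 5′ end, ahead of a shared run. The sequences are from GENCODE vM21 on GRCm38, plus strand, 5′ to 3′, at chr13:42303649-42303711 in exon 2 of 5 of Edn1 and at chr2:174761749-174761811 in exon 2 of 5 of Edn3.
Edn1: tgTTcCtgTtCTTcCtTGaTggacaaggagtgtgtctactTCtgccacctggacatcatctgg
Edn3: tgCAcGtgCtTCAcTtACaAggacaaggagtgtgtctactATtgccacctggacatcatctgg
The genes themselves lie at chr13:42301476-42307990 for Edn1 (ENSMUSG00000021367), chr2:174760619-174784042 for Edn3 (ENSMUSG00000027524), chr4:137862237-137965229 for Ece1 (ENSMUSG00000057530), chr8:77663031-77724464 for Ednra (ENSMUSG00000031616) and chr14:103814625-103844402 for Ednrb (ENSMUSG00000022122). Both ligand genes and Ece1 are on the plus strand, and both receptor genes are on the minus strand.

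Barcodes under 700 genes or above 20% mitochondrial UMIs were left out (UMIs are unique molecular identifiers, each 1 counted transcript). This left 6573, 6091 and 4511 cells, with median depths of 5664, 3471 and 6260 UMIs, and 9 to 11 barcodes of kept cells were shared between any pair of stages. Each cell was given a lineage from the UMIs of marker genes, and the names mean cells that carry those markers: mesenchyme (Prrx1, Twist1, Pdgfra and others), epithelium (Epcam, Cdh1, Krt14), endothelium (Pecam1, Cdh5, Kdr), immune (Ptprc, Csf1r, C1qa), erythroid, mural, glial, muscle, neuronal or melanocyte. Mesenchyme held 5416, 4553 and 2477 cells, endothelium 71, 151 and 115, and immune cells 50, 118 and 25. Epithelium held 9 cells at E11.5, too few to describe, and 641 and 1397 later. Cells with markers of more than 1 lineage numbered 117, 190 and 272, and 749, 395 and 195 cells were unassigned. The Y-linked gene Ddx3y had 0, 588 and 720 UMIs, so the sex of the embryos moved with the stage, and its part in any difference between stages was not tested.

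Edn1, the ligand that patterns the jaw, was rare and was found mainly in endothelium and epithelium. Over all kept cells it had 10 UMIs in 7 cells, 91 in 45 cells and 81 in 41 cells. In endothelium its level, given as CPM (the UMIs of the gene scaled to 1000000 UMIs of the cell group), was 7.37 (2.39 to 17.2) at the youngest stage, then 40.7 (27.5 to 58.2) and 53.7 (40.1 to 70.5). At E11.5, 1 cell held 3 of the 5 UMIs, and the level was 3.13 CPM without it. The middle value rested on 1 cell, which held 24 of the 30 UMIs, and was 8.36 CPM without it. At E16.5, 1 cell held 15 of the 52 UMIs, and the level was 38.8 CPM without it. By cells, 2 of 71, 5 of 151 and 20 of 115 had an Edn1 UMI, which is 2.82% (0.343 to 9.81), 3.31% (1.08 to 7.56) and 17.4% (11 to 25.6). Thinned to 2000 UMIs a cell, with 17, 34 and 7 shallower cells left out, 1 of 54, 4 of 117 and 9 of 108 cells had one, or 1.85%, 3.42% (0.939 to 8.52) and 8.33% (3.88 to 15.2). The share was thus highest at E16.5 as counted. At equal depth its interval overlapped that of E14.5 and also that of E11.5, 0.0469 to 9.89.

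In epithelium, Edn1 stood at 7.11 CPM (5.01 to 9.8) at E14.5 and at 1.16 CPM (0.685 to 1.83) at E16.5. There, 24 of 641 cells had a UMI at the earlier stage and 13 of 1397 at the later one, and after thinning 8 of 603 and 0 of 1325. Epithelial Edn1 was therefore lower at the later stage by level and by cells. Mesenchyme gave the background, with 0 UMIs in 5416 cells at E11.5, which allows up to 0.0718 CPM, and 5 and 2 UMIs later. With 1 UMI in the 9 epithelial cells of E11.5, an epithelial source of Edn1 in the young arch could not be measured. Edn2, the gene of the remaining endothelin, had 0, 28 and 46 UMIs in all kept cells, of which 23 and 32 were in epithelium.

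Edn3 had another distribution and was mainly seen in mesenchyme, which held 90.7%, 90.6% and 82.4% of its UMIs. Its mesenchymal level was 19.6 CPM (18.3 to 21) at the youngest stage, then 9.67 CPM (8.28 to 11.2) and 10.8 CPM (9.37 to 12.4). E11.5 was the highest, and the intervals of the later stages overlapped. A UMI was seen in 12.9%, 3.49% and 7.11% of mesenchymal cells, or in 4.1% (3.57 to 4.69), 2.06% (1.64 to 2.56) and 2.42% (1.85 to 3.11) after thinning. The background was 0.935% of the 107 erythroid cells of E11.5, whose median depth was 3756 UMIs against 6138.5 in mesenchyme. Endothelium had 0, 0 and 1 UMI of Edn3. The mesenchymal level was 4.44-fold above the 3 counts that a 0 allows at E11.5 and 2.37-fold above them at E14.5. The 44 muscle cells of E11.5 had 14 Edn3 UMIs in 11 cells, 46 CPM (25.1 to 77.2), above the mesenchyme of the same stage. After thinning, 2 of 44 muscle cells had one, 4.55% (0.555 to 15.5), which could not be told from the 4.1% of mesenchyme.

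Ece1 was widespread and highest in endothelium. Endothelium had 106 CPM (83 to 134), 89.6 CPM (69.3 to 114) and 77.5 CPM (61 to 97.2), and these intervals overlapped. Mesenchyme had 9.12 CPM (8.23 to 10.1), 17.3 CPM (15.4 to 19.3) and 15.9 CPM (14.1 to 17.8), so that E11.5 was the lowest stage there. On the log2 scale, with 10 CPM added to both groups to damp low counts, endothelium exceeded mesenchyme by 2.60 (2.27 to 2.92), 1.87 (1.52 to 2.20) and 1.76 (1.44 to 2.07). Epithelium lay between them with 31 CPM (26.4 to 36.1) at E14.5 and 22 CPM (19.7 to 24.4) at E16.5. Immune cells had 1, 5 and 1 UMIs, and erythroid cells of E11.5 had 2.

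Ednra was the receptor gene of mesenchyme. Of its UMIs, 94.6%, 94.4% and 85.9% lay in mesenchymal cells, at 81.5 CPM (78.8 to 84.3), 62.6 CPM (59 to 66.3) and 66.7 CPM (63 to 70.6). The E11.5 level was above both later ones, whose intervals overlapped. A UMI was seen in 39.4%, 19.8% and 32.8% of these cells, and in 14.7% (13.7 to 15.7), 10.7% (9.79 to 11.7) and 12.3% (11 to 13.7) once all were thinned to 2000 UMIs. Erythroid cells of E11.5 had a UMI in 2.8% of cells, or 3.3% after thinning, which is the background for that stage. In endothelium Ednra had 2, 0 and 0 UMIs, and the 0 counts allow up to 4.07 and 3.1 CPM. The mesenchymal level was 15.4-fold above this limit at E14.5 and 21.5-fold above it at E16.5.

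A few cells with mural markers (Rgs5, Kcnj8, Notch3), which are those of pericytes, had the highest Ednra levels of any lineage. The 7 of E14.5 had 13 UMIs, 303 CPM (161 to 518). Of these UMIs, 1 cell held 6, and the level was 204 CPM without it. The 24 of E16.5 had 42 UMIs in 15 cells, 211 CPM (152 to 285). Both levels were above the mesenchyme beside them. Mural cells also carried a median of 6 and 5.5 of the 14 mesenchymal markers, and none were called at E11.5. Epithelium had 0.961 CPM (0.312 to 2.24) of Ednra at E14.5 and 4.69 CPM (3.68 to 5.9) at E16.5. The latter came from 73 UMIs in 56 of 1397 cells, 4.01% (3.04 to 5.17). In the endothelium of that stage 0 of 115 cells had one, with an upper bound of 3.16% that overlapped the epithelial interval. The median depths of epithelium and endothelium were 7186 and 5782 UMIs.

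Ednrb was almost without UMIs in mesenchyme, at 0.551, 0.615 and 0.11 CPM, and was spread over endothelium, epithelium, glia and early immune cells. In endothelium it had 7.37 CPM (2.39 to 17.2), 35.3 CPM (23.1 to 51.7) and 81.6 CPM (64.6 to 102). Cells with a UMI numbered 4 of 71, 21 of 151 and 32 of 115, or 5.63% (1.56 to 13.8), 13.9% (8.82 to 20.5) and 27.8% (19.9 to 37). The levels followed the order of the stages, and their intervals did not overlap. At E16.5, 1 cell held 15 of the 79 UMIs, and the level was 68.5 CPM without it. The thinned shares were 1.85%, 7.69% (3.58 to 14.1) and 11.1% (5.87 to 18.6), which kept the order with overlapping intervals.

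In epithelium, Ednrb had the opposite order by level, with 11.9 CPM (9.14 to 15.3) at E14.5 and 4.5 CPM (3.5 to 5.68) at E16.5. The thinned shares kept that order with overlapping intervals, 2.49% (1.4 to 4.07) and 0.981% (0.523 to 1.67). Glial cells, called from Sox10, Erbb3 and others, had the highest Ednrb levels, in few cells. The 9 of E11.5 had 9 UMIs, 94 CPM (43 to 178), and the 32 of E14.5 had 47 UMIs in 24 cells, 321 CPM (236 to 427). The 4 of E16.5 had 8 UMIs, 6 of them in 1 cell. At E11.5 the glial interval overlapped that of immune cells, and the glial level was 68.9 CPM without the cell with most UMIs. Glia and immune cells could therefore not be ranked at that stage. No cell was called as a melanocyte. The immune cells of E11.5 had 32 Ednrb UMIs in 19 of 50 cells, 78.6 CPM (53.7 to 111), whereas those of E14.5 had 5 UMIs in 4 of 118 cells, 6 CPM (1.95 to 14). The 25 immune cells of E16.5 had none, which allows up to 11.6 CPM. Erythroid cells of E11.5 also had none in 107 cells. The immune groups carried medians of 11, 7 and 8 of the 13 immune markers, at median depths of 7635.5, 6600 and 8528 UMIs. Whether the make-up of the immune cells differed between stages was not tested.

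**Figure D1:**
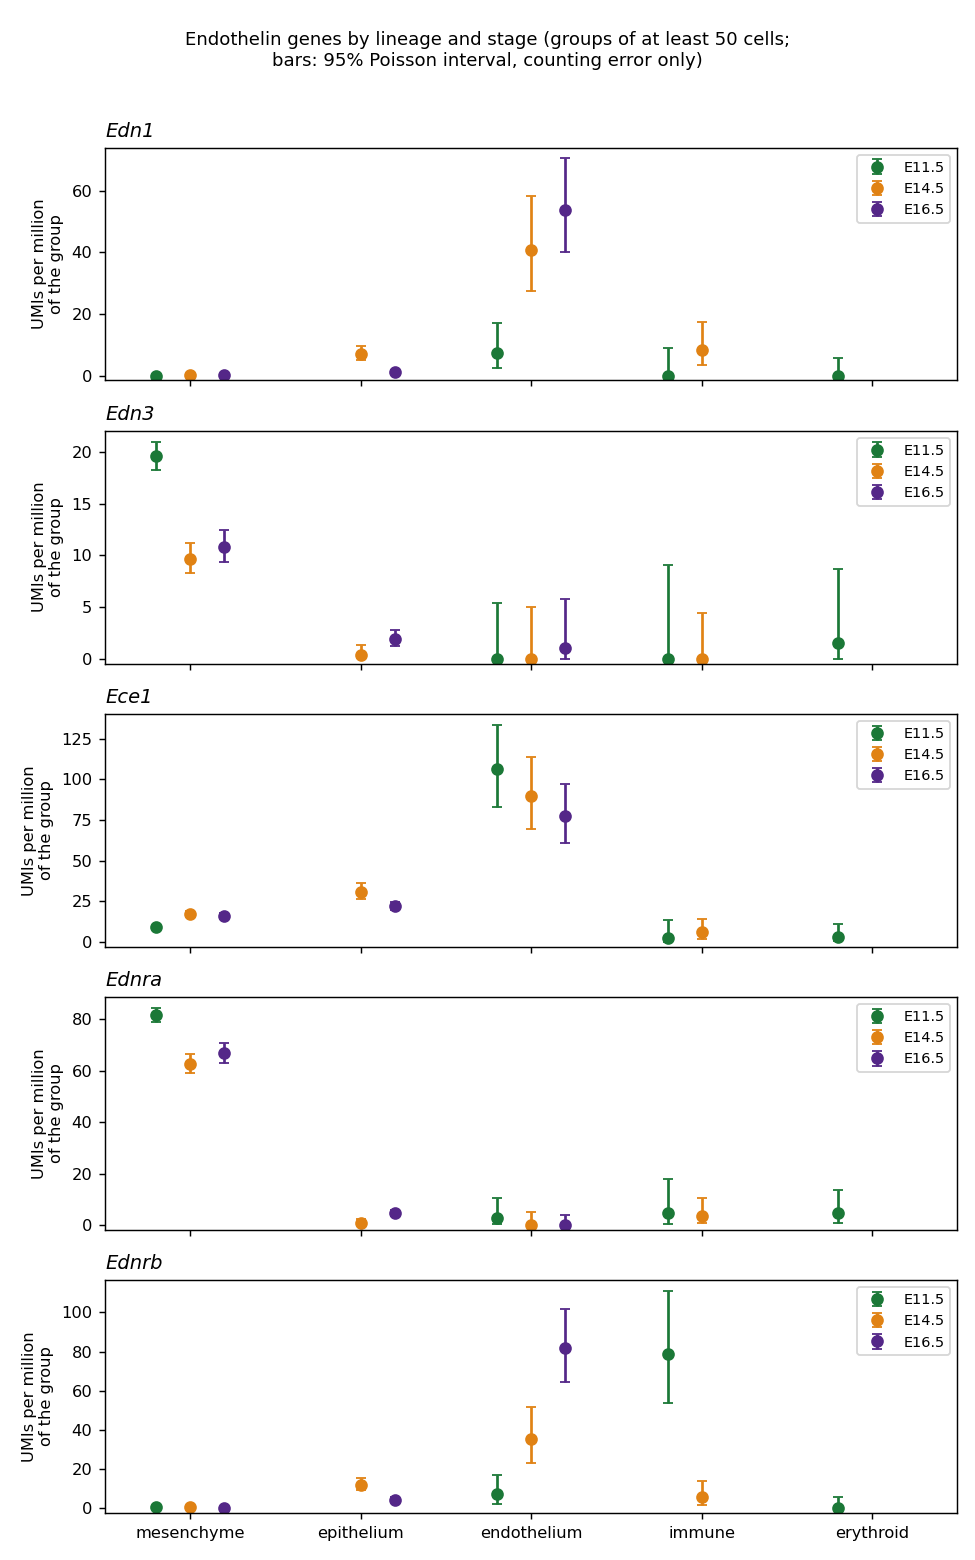
Level of the 5 endothelin genes in CPM (the UMIs of a gene scaled to 1000000 UMIs of the group, vertical axes) by lineage (horizontal axis) and stage (colour), for groups of at least 50 cells. Points are sums over cells and bars the 95% Poisson interval. Ednra and Edn3 stand out in mesenchyme, Ece1 in endothelium, and Edn1 and Ednrb in endothelium at the later stages, with Ednrb also at 78.6 in the E11.5 immune cells. The E14.5 point of Edn1 in endothelium is 8.36 without 1 cell, beside 8.40 in immune cells and 7.11 in epithelium.

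The receptor make-up differed between lineages. Counted as the share of Ednra in all receptor UMIs of a group, mesenchyme had 99.3% (99.0 to 99.6), 99.0% (98.3 to 99.5) and 99.8% (99.4 to 99.98). Endothelium had 0 Ednra of 26 receptor UMIs at E14.5 and 0 of 79 at E16.5, with upper bounds of 13.2% and 4.56%. In epithelium the share was 7.46% (2.47 to 16.6) at the earlier of these stages and 51.0% (42.6 to 59.5) at the later one. The later epithelial share came from low levels of both genes, 4.69 CPM of Ednra and 4.5 CPM of Ednrb. For scale, the erythroid cells of E11.5, used as the Ednra background of that stage, had 4.66 CPM (0.962 to 13.6). Whether epithelial Ednra exceeded background was not tested. Mural cells had 13 of 13 and 42 of 42 receptor UMIs as Ednra, and glia of E14.5 had 47 of 49 as Ednrb. These shares compare groups and not the amounts of the receptors, because UMI counts of different genes depend on how well each transcript's 3′ end is captured.

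Between stages, ratios were taken within a lineage and set beside those of all genes with at least 50 UMIs in both groups together. In mesenchyme from E11.5 to E14.5, Edn3 was lower, with a log2 ratio of -0.59 (-0.71 to -0.46), and so was Ednra, with -0.33 (-0.42 to -0.25), while Ece1 was higher, with 0.51 (0.39 to 0.64). The median of all 12718 genes compared was -0.10, and 8.72% of genes had a lower ratio than Edn3. Of the 3 members compared 0 passed 2-fold, where 2.81% of all genes were higher and 1.98% lower by that much, 4.8% in all. From E14.5 to E16.5, mesenchymal Edn3, Ednra and Ece1 had ratios of 0.08 (-0.07 to 0.23), 0.08 (-0.02 to 0.18) and -0.08 (-0.22 to 0.07), against a median of 0.09, and every one of these intervals included 0. Again 0 of 3 passed 2-fold, against 1.26% of genes higher, 0.402% lower and 1.67% in all. Over the whole span 0 of 3 did, against 4.95%, 2.45% and 7.4%.

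In endothelium from E11.5 to E14.5, Ednrb had a ratio of 1.38 (0.59 to 2.04) and Edn1 one of 1.55 (0.77 to 2.19), both from under 50 UMIs. Without the cell with most Edn1 UMIs at each stage, the ratio of Edn1 was 0.48 (-0.37 to 1.19). The 1 member with enough UMIs, Ece1, had a ratio of -0.22 (-0.67 to 0.23) and did not pass 2-fold, where 1.7% of genes were higher and 2.15% lower, 3.85% in all. From E14.5 to E16.5, Ednrb was higher by 1.02 (0.48 to 1.55), 1 of 3 members past 2-fold, against 0.881% of 4311 genes higher, 0.255% lower and 1.14% in all. This call rested on 1 cell, since the ratio of Ednrb was 0.91 (0.34 to 1.48), under 2-fold, without the cell with most Ednrb UMIs at each stage, and it was 0.53 to 1.19 over all alternatives run. Edn1 had a ratio of 0.33 (-0.22 to 0.88), or 1.41 (0.68 to 2.03) without the cells richest in it, and Ece1 one of -0.19 (-0.62 to 0.25). Over the whole span, Edn1 and Ednrb, 2 of 3 members, were at least 2-fold higher, by 1.88 (1.14 to 2.47) and 2.40 (1.69 to 2.96), against 3.13% of 4406 genes higher, 1.7% lower and 4.83% in all. Each had only 5 UMIs at E11.5, against 52 of Edn1 and 79 of Ednrb at E16.5. Both thus reached the 50 UMIs only through the stage where they were high, and the count of 2 of 3 is no separate support for a rise.

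In epithelium from E14.5 to E16.5, Edn1 was lower, with a ratio of -0.62 (-0.84 to -0.41), as were Ednrb, with -0.60 (-0.83 to -0.37), and Ece1, with -0.36 (-0.56 to -0.16), and Ednra was higher, with 0.42 (0.23 to 0.57). Of these 4 members 0 passed 2-fold, against 1.27% of 11216 genes higher, 0.357% lower and 1.62% in all. Only 1.57% and 1.68% of those genes had a lower ratio than Edn1 and Ednrb. The added 10 CPM holds such low genes near 0: with 1 CPM added, the ratios were -1.91 for Edn1, -1.23 for Ednrb and 1.54 for Ednra. By cells, epithelial Ece1 was alike at both stages, with a UMI in 17.5% and 16.8%. After thinning these Ece1 shares were 4.81% (3.24 to 6.83) and 4.6% (3.54 to 5.87). The thinned shares of epithelial Ednrb, 2.49% (1.4 to 4.07) and 0.981% (0.523 to 1.67), had overlapping intervals. Those of epithelial Ednra, 0.166% (0.0042 to 0.92) and 0.83% (0.415 to 1.48), overlapped as well. Epithelial Ednra had 5 UMIs at E14.5 and 73 at E16.5. It thus reached the UMI limit for comparison only through the stage where it was high. Immune Ednrb had a ratio of -2.47 (-3.08 to -1.72) from E11.5 to E14.5. It had 37 UMIs in both groups together, so 0 members were among the 3057 immune genes compared, of which 5.56% were 2-fold higher and 5.66% lower, 11.2% in all.

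**Figure D2:**
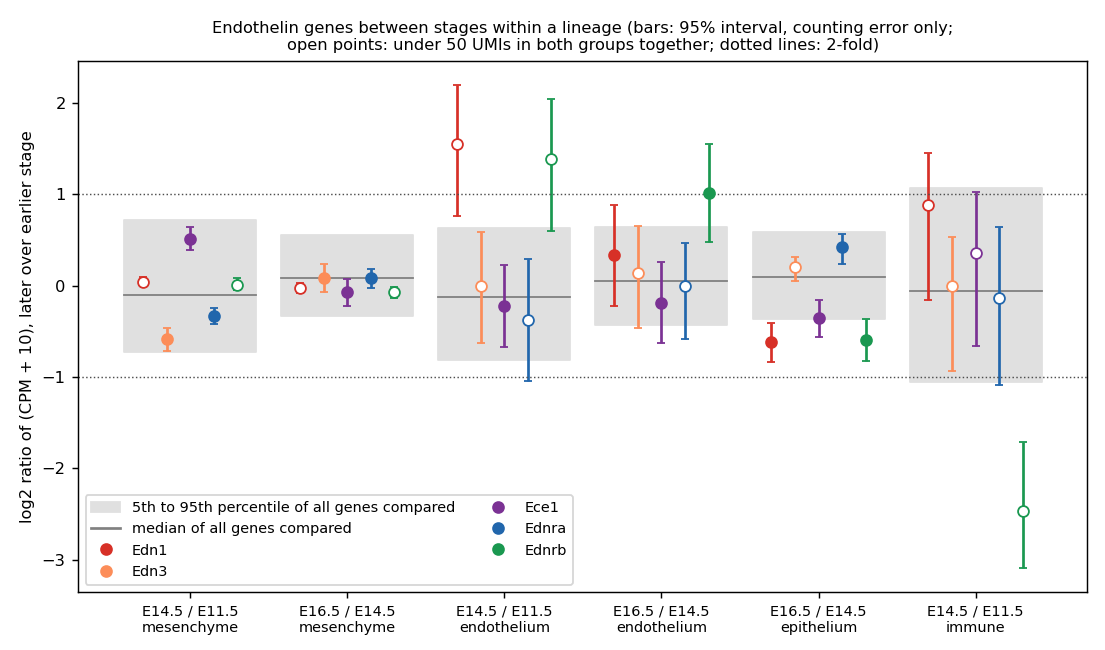
Log2 ratio of each endothelin gene between 2 stages within a lineage, with 10 CPM added (vertical axis), for 6 comparisons (horizontal axis). Points are the ratios with 95% intervals, open where the groups held under 50 UMIs together, and grey bands span the 5th to 95th percentile of all genes compared. The mesenchymal ratios lie inside the bands. Endothelial Ednrb lies above them at 1.38 and 1.02, as does endothelial Edn1 at 1.55 from E11.5 to E14.5. That Edn1 point rests on 1 cell of E14.5 with 24 of the 30 UMIs, and without the richest cells the ratio is inside the band. Epithelial Edn1 and Ednrb lie below at -0.62 and -0.60, and immune Ednrb far below at -2.47. The points at 1.38, 1.55 and -2.47 are open.

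Mesenchyme was divided into clusters in each stage, without the endothelin genes, the pathway genes and the markers, and each cluster is called by its leading genes. Every cluster had Ednra UMIs. At E11.5, among clusters of ordinary depth, Ednra was highest in the 779 cells led by Pax3, Msx1 and Msx2, at 112 CPM (105 to 119), and lowest in the 1150 cells led by Plagl1, Cited1 and Foxf1, at 54.4 CPM (49.5 to 59.7). Edn3 had the reverse order in this pair, with 12.3 CPM (10 to 14.9) and 32.3 CPM (28.6 to 36.5). The Cited1 cluster also had the highest Ece1 level, 14.54 CPM (12.1 to 17.4), and 19 of the 23 mesenchymal Ednrb UMIs of that stage. A cluster of 488 cells led by haemoglobin genes, with a median of 1865.5 UMIs, had 146 CPM (124 to 172) of Ednra and was left out of these comparisons for its low depth. The 833 cells led by Hbb-bt had 96.5 CPM (87.1 to 107).

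In the incisor buds, clusters nearly without Edn3 lay beside clusters above 20 CPM. At E14.5 Edn3 had 26.3 CPM (18.6 to 36.1) in the 541 cells led by Osr1, Ebf2 and Ogn and 1.76 CPM (0.908 to 3.07) in the 1222 cells led by Crym, Dlx2 and Fgf3, a log2 ratio of 1.63 (1.25 to 1.99). At E16.5 it had 25.0 CPM (17.8 to 34.1) in the 279 cells led by Bmp3 and Dkk2 and 21.5 CPM (16.6 to 27.4) in the 492 led by Igfbp3 and Sfrp4. It had 1.51 CPM (0.41 to 3.86) in the 328 led by Ifitm5 and Smpd3 and 2.08 CPM (0.252 to 7.52) in the 139 led by Aspn and Pax3. Ece1 was highest in the same Osr1 cluster, at 45.0 CPM (34.7 to 57.3), and in the same Bmp3 cluster, at 27.5 CPM (19.9 to 37.1), the latter with an interval that overlapped that of the Igfbp3 cluster.

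Ednra at E14.5 had 102 CPM (86.7 to 119) in the 545 cells led by Ccnd1, Pitx1 and Fgf18, against 43.3 CPM (37.1 to 50.3) in the 1392 cells led by Ibsp and Igfbp5 and 39.0 CPM (23.8 to 60.3) in 83 cells led by haemoglobin genes. At E16.5 it ran from 42.7 CPM (30.6 to 57.9) in the Aspn cluster to 85.1 CPM (76.2 to 94.8) in the 700 cells led by Lypd1 and Col8a1. The log2 ratio of the highest over the lowest cluster was 0.92, 1.19 and 0.85 for Ednra and 0.92, 1.63 and 1.60 for Edn3. The intervals of both genes overlapped at each stage. The lowest Ednra cluster of E14.5 was the 83 cells led by haemoglobin genes. These clusters were picked from the same levels, which the intervals do not allow for. The Crym cluster, nearly without Edn3, had 66.8 CPM (60.8 to 73.2) of Ednra. Cell by cell, an Ednra UMI was seen in 326 of the 696 Edn3-positive mesenchymal cells of E11.5, 46.8%, against 38.3% of those without Edn3, at median depths of 8775 and 5873.5 UMIs. The shares were 18.9%, from 30 of 159 cells, against 19.8% at E14.5, with median depths of 3306 and 3315 UMIs. They were 38.6%, from 68 of 176 cells, against 32.3% at E16.5, with median depths of 5910 and 5939 UMIs. Whether any of these shares differed was not tested, nor was the part of depth at E11.5.

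**Figure D3:**
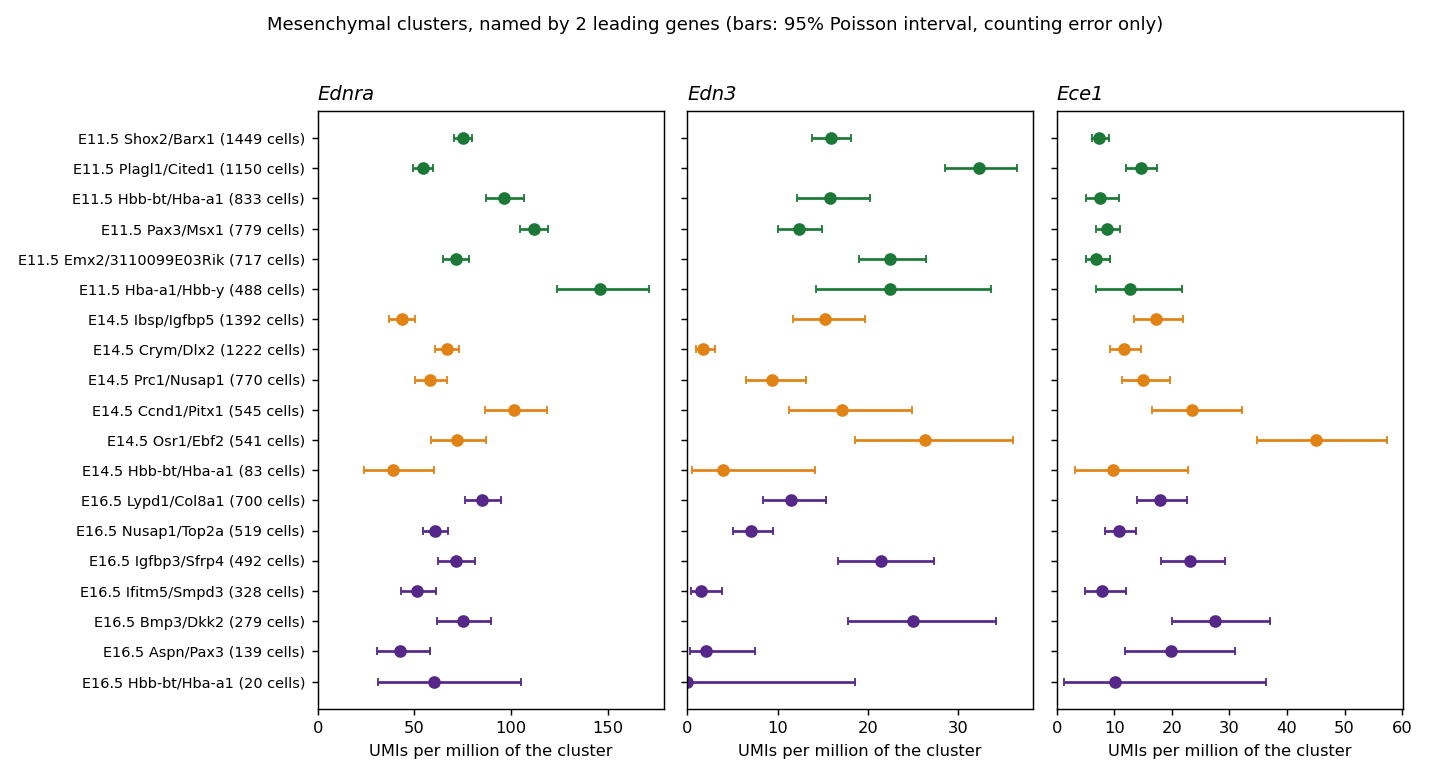
Level of Ednra, Edn3 and Ece1 in CPM (horizontal axes) in each mesenchymal cluster (vertical axis, with its stage, 2 leading genes and cell number). Bars are 95% Poisson intervals. Ednra is present in every cluster, at 39.0 CPM or more, while Edn3 lies above 20 in some and near 2 in other clusters of E14.5 and E16.5.

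The epithelium was clustered in the same way, which was decided after the data had been seen. At E14.5, Edn1 had 8.14 CPM (4.33 to 13.9) in the 237 cells led by Meis2 and Krt15, 11.1 CPM (6.32 to 18) in the 156 cells led by Tmem100 and Ntrk2 and 1.2 CPM (0.145 to 4.33) in the 172 cells led by Crabp1 and Sema3e. Ednrb was low in the same cluster, with 15.7 CPM (10.1 to 23.1), 15.2 CPM (9.54 to 23) and 2.4 CPM (0.654 to 6.14) in that order. By cells the contrast was weaker. Edn1 was seen in 2.53% (0.935 to 5.43), 7.05% (3.57 to 12.3) and 1.16% (0.141 to 4.14), with overlapping intervals. For Ednrb, the share in the Crabp1 cluster, 2.33% (0.637 to 5.85), overlapped that in the Krt15 cluster, 6.75% (3.91 to 10.7). A group of 46 cells was led by Wif1, Shh and Fgf4, of which Shh and Fgf4 are known from the enamel knot. It had 5 Edn1 UMIs, 13 CPM (4.23 to 30.4), 10 Ednrb UMIs, 26 CPM (12.5 to 47.9), and 1 Ece1 UMI. These Edn1 and Ednrb levels were the highest of the E14.5 epithelial clusters, with intervals that overlapped those of the Krt15 and Tmem100 clusters. The Edn1 interval also overlapped that of the Crabp1 cluster. Ece1 was highest in the Krt15 cluster, at 54.5 CPM (43.6 to 67.2). At E16.5 it had 48.1 CPM (39.9 to 57.4) in the 259 cells led by Angpt1 and Maf. In the 402 cells led by Stmn2, Ece1 had 9.09 CPM (6.22 to 12.8), and Ednra had 32 UMIs, also 9.09 CPM. Ednra was alike in the 72 cells led by Enpp2, at 8.9 CPM (2.89 to 20.8). Edn1 had 3.94 CPM (1.89 to 7.25) in the Angpt1 cluster and 5.34 CPM (1.1 to 15.6) in the Enpp2 cluster. In the 426 cells led by Prc1 it had 0.756 CPM (0.245 to 1.76). Edn1 had no UMI in the Stmn2 cluster, in the 167 cells led by Pcp4 or in the 71 led by Hbb-bt. The upper bounds there were 1.05, 1.8 and 12.8 CPM, and the last overlapped the intervals of the other clusters.

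The enzymes that cut endothelin precursors or degrade the peptides were followed as a list of 6: Furin, Pcsk7, Ece1, Ece2, Mme and Kel. In mesenchyme from E11.5 to E14.5, 1 of the 5 with enough UMIs was at least 2-fold higher, where 2.81% of all genes were, and the list's median was 0.33 against -0.10 for all genes. It was Mme, the gene of neprilysin, which breaks endothelins down, with 19.7 CPM (18.4 to 21.1) and 113 CPM (108 to 118), a log2 ratio of 2.05 (1.96 to 2.14). Furin had 8.35 and 13.1 CPM, a ratio of 0.33 (0.21 to 0.46). From E14.5 to E16.5, 0 of 5 passed 2-fold, against 1.67% of all genes, with a median of 0.05 against 0.09.

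Of the 9 genes for Edn2 and the signal chain below the receptors, 8 could be compared in mesenchyme, and 1 was at least 2-fold higher at E14.5 than at E11.5, where 2.81% of all genes were. This was Mef2c, a transcription factor of the craniofacial endothelin response, with 18.4 CPM (17.1 to 19.8) and 152 CPM (147 to 158), a log2 ratio of 2.52 (2.43 to 2.60). Mef2c was also high in endothelium, with 461, 481 and 507 CPM. In immune cells it went the other way, with 862 CPM at E11.5 and 179 CPM at E14.5, a log2 ratio of -2.21 (-2.48 to -1.94). Gnaq and Gna11, whose products couple the receptors to phospholipase C, had mesenchymal levels of 51.4, 66.7 and 68.1 CPM and of 44.4, 56.6 and 48.9 CPM. The phospholipase genes Plcb1, Plcb3 and Plcb4 had ratios of 0.39, -0.03 and 0.12 in the first step. The median of the list was 0.25 and then 0.01, against -0.10 and 0.09, and 0 of 8 passed 2-fold from E14.5 to E16.5, where 1.26% of all genes were higher and 0.402% lower.

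The mandibular arch targets were 8 homeobox and bHLH genes known to depend on endothelin-1 in the young arch: Dlx3, Dlx4, Dlx5, Dlx6, Hand1, Hand2, Gsc and Gbx2. From E11.5 to E14.5 in mesenchyme 4 of 8 were at least 2-fold lower, against 1.98% of genes, and 0 were 2-fold higher, with a median of -0.98. Gsc had 107 CPM (104 to 111) and 8.78 CPM (7.46 to 10.3), a ratio of -2.64 (-2.76 to -2.53). Dlx6 had 62.2 and 15.8 CPM, a ratio of -1.49 (-1.60 to -1.37), and Hand1 had 22.4 and 3.41 CPM, a ratio of -1.27 (-1.38 to -1.15). Gbx2 had 428 UMIs at E11.5 and 0 at E14.5, and its E11.5 level was 61.1-fold above the 3 counts that a 0 allows. The targets did not share 1 pattern, since Hand2, an effector of the pathway in the distal arch, had 167 CPM (163 to 171), 224 CPM (217 to 231) and 314 CPM (306 to 322), and Dlx5 had 102, 48.6 and 145 CPM.

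From E14.5 to E16.5, 3 of the 7 targets compared were at least 2-fold higher, against 1.26% of genes: Dlx3, Dlx4 and Dlx5, with ratios of 1.65 (1.52 to 1.78), 1.59 (1.45 to 1.72) and 1.41 (1.31 to 1.5). At E11.5, Hand2 was highest in the Cited1 cluster, at 313 CPM (301 to 326), and the Pax3 cluster, at 283 CPM (272 to 295), which were the lowest and the highest for Ednra. Dlx5 was lowest in the Cited1 cluster, at 41.6 CPM (37.3 to 46.2). Gbx2 was highest in the 717 cells led by Emx2, at 40.2 CPM (35.5 to 45.3), where Ednra had 71.3 CPM (65 to 78.1). Hand2 was thus high at both ends of the Ednra range.

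**Figure D4:**
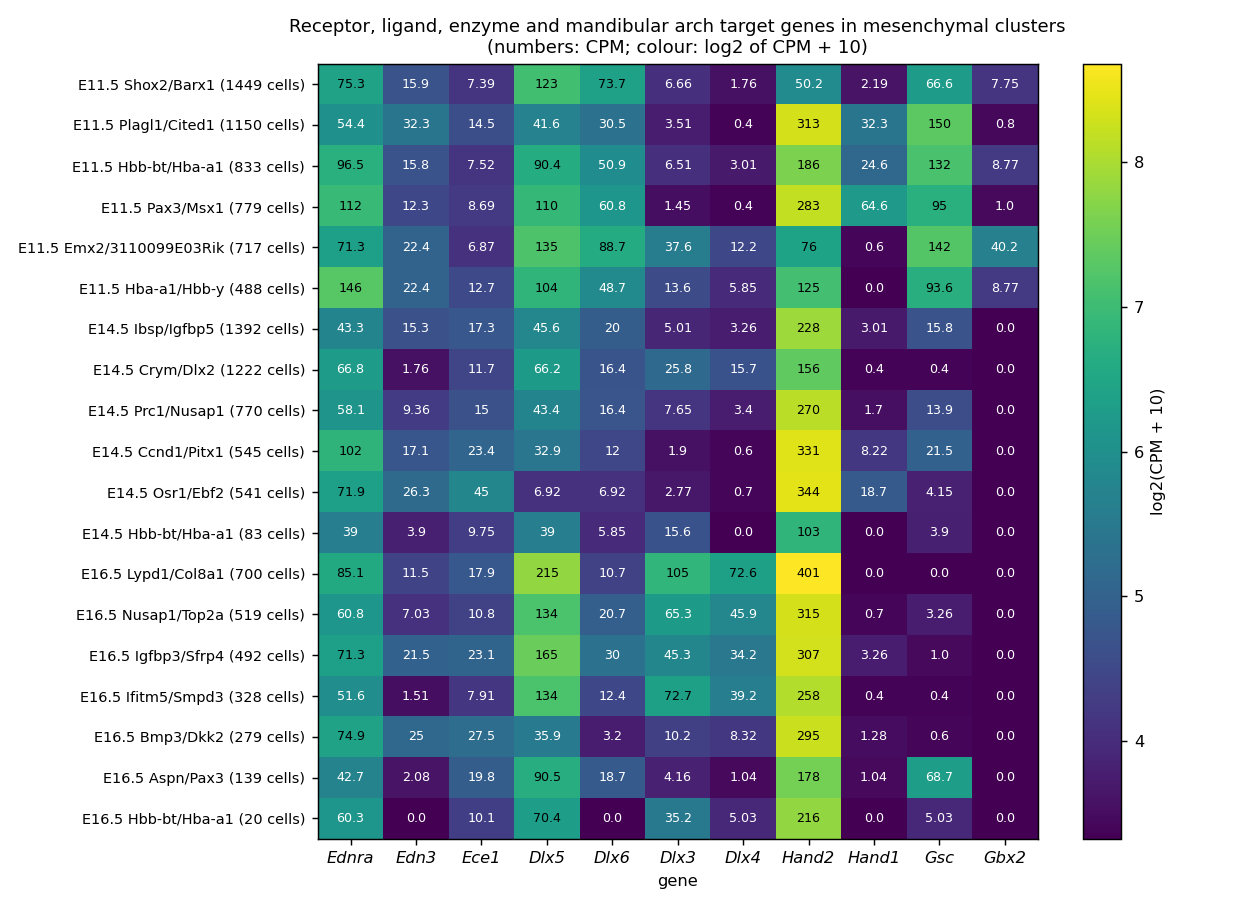
Levels of Ednra, Edn3, Ece1 and the 8 mandibular arch target genes (horizontal axis) in the mesenchymal clusters of the 3 stages (vertical axis), with CPM printed in each field and log2 of CPM + 10 as colour. Gbx2 is at 0 in every E14.5 and E16.5 cluster, Gsc reaches 68.7 CPM in the E16.5 Aspn cluster, Hand2 is above 50 CPM in every cluster, and Dlx3 and Dlx4 are highest in the E16.5 Lypd1 cluster.

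The genes whose levels were most like those of each member were ranked over the 11 groups of lineage and stage with at least 50 cells, by Pearson's r of log2(CPM + 10), as a description. For Edn1 they were Cav1, Gimap5, Stap2, Npr1 and Cav2 (r from 0.949 to 0.963), and for Ece1 Hspg2, Arhgef28, Tspan9, Notch1 and Myo18a (0.977 to 0.987). For Ednra they were Pdgfra, which is also a mesenchymal marker used in the calls, 2610027K06Rik, Alx4, Tmem132c and Ddr2 (0.983 to 0.990), and for Edn3 Xpnpep2, Bche, Pak7, Tnfaip6 and Gm3830 (0.980 to 0.986). Ednrb had lower values, with Jak3, Ggta1, Abca3, Il16 and Entpd1 (0.901 to 0.927). The groups of a stage come from 1 matrix, whose samples cannot be separated, and 14391 genes were ranked.

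Within endothelium of E16.5, 20 cells had Edn1, 32 had Ednrb and 4 had both, so 20% of the Edn1 cells had Ednrb against 29.5% of the others, at median depths of 7122.5 and 5742 UMIs. Ece1 was detected in 11 of those 20 Edn1 cells, 55%, against 38.9% of the rest, and in 18 of the 32 Ednrb cells, 56.2%, against 36.1%. Cells with an Edn1 or an Ednrb UMI had higher median depths than those without, and the part of depth in these shares was not tested.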

How the data were processed

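Single cells were captured with 10x Chromium 3′ chemistry. Per the submitters' processing notes, Cell Ranger 4.0.0 and mm10 were used, and the authors deposited raw UMI counts, 1 matrix per stage with no normalization. Total counts were 49264075, 31670249 and 42895059 UMIs. The members and lists were chosen with earlier results of these data known, and the rule that turns markers into lineages was set after the data were seen: a cell took the list with the largest share of its markers detected, with at least 3, was mixed where another list reached 0.5 of that share, and was unassigned with fewer. Mural and mesenchymal markers were not counted against each other. UMIs were summed per group (python 3.11.15, numpy 2.4.6, scipy 1.17.1). CPM intervals are exact Poisson, shares exact Clopper-Pearson, and ratio intervals combine both Poisson intervals on the log2 scale. They cover counting error only. A gene was compared between stages at 50 UMIs over both groups and called at 2-fold. A 0 allows 3 counts, and folds above that limit leave out the counting error of the other group. Mesenchyme was clustered with 2000 variable genes, 20 principal components and Leiden resolution 0.4. A cluster with a median depth more than 3 times below that of all mesenchyme was left out of comparisons. Named genes were the members, all listed pathway genes, the 5 genes most like each member and the 5 leading genes of a cluster. Scripts were tested on simulated data. Doublets were left in, except in 1 alternative without the cells with the highest Scrublet scores (scanpy 1.11.5). Its limit was set for 5% of cells and took out 388, 342 and 248 cells. The erythroid marker Ahsp was not used here. Other alternatives changed the limits on cells, markers, the added CPM, the resolution and the depth.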

Additional observations from a re-analysis of the deposited data

Results flagged for a closer look

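Ednrb had log2 ratios of opposite sign in endothelium and epithelium from E14.5 to E16.5, 1.02 (0.48 to 1.55) and -0.60 (-0.83 to -0.37), and the intervals of both excluded 0. The difference between the lineages was not tested, since each stage is 1 sample.

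Ednra also appeared in barcodes that did not pass the limits on cells, with 143 UMIs in 2135 barcodes at E11.5, 34 UMIs in 2101 at E14.5 and 4 UMIs in 1208 at E16.5. These are 81.7, 8.71 and 1.39 CPM, so that the E11.5 value is as high as in the mesenchyme of that stage.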

How the results depend on the processing

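No paired analysis was possible because nothing ties a barcode to 1 of its stage's samples, and leaving out a replicate was not run for the same reason. Of 270 recomputed ratios and counts, 234 stayed within the counting interval, or within 1.5 times for counts, 36 moved and 0 reversed. Of 385 recomputed levels, 351 stayed and 34 moved. Thinning to 2000 UMIs moved the most levels, 18, and left 37 the same. Calling lineages for whole clusters moved 8. Both filters on cells and the removal of cells with high doublet scores moved no ratio, and neither did leaving out mesenchymal clusters led by haemoglobin genes, an alternative chosen after seeing the data, as was leaving out the richest cell. With 1 CPM added instead of 10, the E14.5 over E11.5 ratios were -0.95 for Edn3 and 0.85 for Ece1 in mesenchyme, 2.32 for Edn1 and 2.12 for Ednrb in endothelium and -3.51 for immune Ednrb. The epithelial ones from E14.5 to E16.5 were -1.91 for Edn1, -1.23 for Ednrb and 1.54 for Ednra. Mesenchyme over endothelium for Ednra was 4.39, 5.99 and 6.08 in stage order, and endothelium over mesenchyme was 2.43, 4.49 and 6.22 for Ednrb and 3.40, 2.31 and 2.22 for Ece1. These follow from the smaller addition. Thinning to 2000 UMIs gave 0.20 for mesenchymal Ednra from E14.5 to E16.5, 0.49 and 1.47 for endothelial Edn1 in the first and second step, -0.10 for epithelial Ece1 and 2.81 for Ednrb in endothelium over mesenchyme at E16.5. The mean of each cell's CPM gave -0.47 for Ednra and -0.46 for Edn3 in mesenchyme from E11.5 to E14.5, 1.28 for endothelial Edn1 from E14.5 to E16.5 and 1.79 for Ednra in mesenchyme over endothelium at E11.5. That last ratio was 1.83 at E11.5 and 1.88 at E14.5 with lineages called for whole clusters and 3.22 at E11.5 with 5 markers per cell. Without the richest cell, endothelial Edn1 had 0.48 and 1.41. The ratio of the highest over the lowest mesenchymal cluster was 2.19 at E14.5 and 1.41 at E16.5 for Ednra, 1.14 at E11.5 for Edn3 and 2.15 at E14.5 for Ece1 at a resolution of 0.8, and 1.15 at E16.5 for Edn3 at 0.2. Where no cause is named, the cause was not tested. With 5 to 30 Edn1 UMIs in endothelium at E11.5 and E14.5, depth limits what can be said of that step.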

Other observations

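Cells outside the named lineages held members as well. Mixed cells had 43.0, 16.1 and 18.3 CPM of Ednra and 31.6, 22.0 and 22.0 CPM of Ece1, in stage order. Unassigned cells of E11.5 had 60.5 CPM (50.4 to 72.0) of Ednra and 22.1 CPM (16.2 to 29.4) of Edn3, against 81.5 and 19.6 CPM in mesenchyme, and those of E14.5 had 10.7 CPM (5.34 to 19.1) of Ednrb.

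In epithelium from E14.5 to E16.5, 2 of the 4 arch targets compared were at least 2-fold higher, against 1.27% of genes. Dlx5 had 20.8 CPM (17.0 to 25.1) and 118 CPM (113 to 124), a log2 ratio of 2.06 (1.86 to 2.26), and Dlx3 had 14.6 and 46.9 CPM, a ratio of 1.21 (0.99 to 1.42). In endothelium, Plcb1 had 5, 29 and 51 UMIs in stage order, or 7.37, 39.4 and 52.7 CPM.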
